A study of Homo sapiens with 2 samples.

Results

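Chromosomes 16 and 19 carried 365 of the 2697 summits (13.5%) in a list of ChIP-seq peak summits for WSTF in SW620 cells, 194 on chromosome 16 and 171 on chromosome 19. Every summit that the list places on either chromosome was taken. The study used chromatin immunoprecipitation with an antibody against WSTF, a bromodomain protein encoded by BAZ1B, in SW620, an established human colorectal cancer line that was derived from a lymph node. Its 2 samples, 1 of them titled with the suffix IP, are represented by this single list, which carries no sample label and was compared with no other. The design text speaks of cells that overexpress WSTF and the title of the series of a knockdown, so the WSTF level of these cells is not known here. The list holds no expression values, so the identity of the line could not be checked on its markers.

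WSTF pairs with the ATPase SMARCA5 in ISWI remodelling complexes, which slide and space nucleosomes, and it has been linked to chromatin at replication forks and to the response to DNA damage. Chromosome 19 has the highest gene density of the human chromosomes and holds large clusters of zinc finger genes, most of which encode KRAB repressors of transposable elements and arose by local duplication. Chromosome 16 has a gene-rich tip on its short arm and a gene-rich block in the middle of its long arm, at 16q22, where many broadly expressed genes lie side by side.

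The 2 chromosomes were chosen by the summit positions in this same list, with the share of their genes near a summit already known. There is also only 1 list, without replicates. Shares are therefore given as descriptions with 95% intervals by the exact Clopper-Pearson method. These account for counting error alone and treat neighbouring genes as independent, and no test was made. The score of a summit is the peak caller's −log10 q-value, as deposited, and was used within the list only. The sequencing depth is unknown, so absence from the list is no measure of absent WSTF.

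Promoters of some genes with high-scoring summits, picked by hand with their scores known, are shown first, because most summits lay at transcription starts. Each window runs from 250 bp before to 50 bp after the start (RefSeq, GRCh38.p14), 5′ to 3′ on the gene's strand. Capitals mark matches, on either strand, to 6 motifs: GGGCGG (bound by SP and KLF factors), CCGGAAG (ETS factors), the NRF1 palindrome, CCAAT (NFY), ATGGCGGC (YY1) and TATAAA (the TATA box). Where matches touch or overlap they form a single capital run. On chromosome 16 these are the promoters of SLC7A6 (chr16:68264276-68264575, plus strand), VPS4A (chr16:69311100-69311399, plus strand), CTCF (chr16:67562276-67562575, plus strand) and CHTF8 (chr16:69132539-69132838, minus strand). The CHTF8 window also holds the start of its divergent neighbour UTP4.
SLC7A6: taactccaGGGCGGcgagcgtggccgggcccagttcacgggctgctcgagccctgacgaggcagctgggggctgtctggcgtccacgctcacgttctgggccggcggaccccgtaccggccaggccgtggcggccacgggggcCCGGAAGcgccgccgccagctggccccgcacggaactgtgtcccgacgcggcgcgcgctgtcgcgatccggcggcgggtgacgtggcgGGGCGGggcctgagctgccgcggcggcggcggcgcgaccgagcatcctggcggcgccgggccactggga
VPS4A: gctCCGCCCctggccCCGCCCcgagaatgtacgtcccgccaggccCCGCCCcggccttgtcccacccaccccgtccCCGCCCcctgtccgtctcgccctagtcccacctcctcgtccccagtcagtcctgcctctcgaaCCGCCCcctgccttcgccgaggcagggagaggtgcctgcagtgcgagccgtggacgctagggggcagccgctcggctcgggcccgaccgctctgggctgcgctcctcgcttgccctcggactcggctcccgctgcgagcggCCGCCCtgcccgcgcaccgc
CTCF: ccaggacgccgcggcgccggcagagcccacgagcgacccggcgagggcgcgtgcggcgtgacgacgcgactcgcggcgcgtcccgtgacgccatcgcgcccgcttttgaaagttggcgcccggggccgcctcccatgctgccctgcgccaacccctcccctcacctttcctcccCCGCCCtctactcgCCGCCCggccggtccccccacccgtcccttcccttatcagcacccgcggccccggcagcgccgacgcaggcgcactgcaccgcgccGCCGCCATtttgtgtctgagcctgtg
CHTF8: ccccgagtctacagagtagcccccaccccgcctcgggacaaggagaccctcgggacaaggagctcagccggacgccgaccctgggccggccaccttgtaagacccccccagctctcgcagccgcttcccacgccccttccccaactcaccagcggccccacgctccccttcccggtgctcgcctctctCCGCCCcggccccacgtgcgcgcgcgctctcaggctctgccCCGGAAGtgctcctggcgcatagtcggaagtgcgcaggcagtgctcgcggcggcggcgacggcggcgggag
The 4 windows had a GC content of 78.7%, 76.3%, 75.3% and 73.3% in that order. Not every gene with a high score had so GC-rich a window. That of PHLPP2, which had the next score after CTCF (11.9), had a GC content of 39.7% and 5 CpG dinucleotides. That of CENPT (10.4) had 56.3% and 7. The summits of PHLPP2 and CENPT lay outside these windows, 612 and 700 bp after the start. The CENPT summit lay 60 bp after the start of NUTF2, whose window had a GC content of 69.3%. None of the 4 printed windows held the TATA, NFY or NRF1 motif, and GGGCGG occurred in each of them, 6 times in VPS4A. The summits of SLC7A6 and CHTF8 lay inside their windows, while those of VPS4A and CTCF lay outside, 214 bp after and 288 bp before the start.

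On chromosome 19 the promoters of TCF3 (chr19:1652566-1652865, minus strand), ZNF274 (chr19:58182811-58183110, plus strand) and KLF2 (chr19:16324576-16324875, plus strand) are shown for their summits. ZNF254 (chr19:24086937-24087236, plus strand) is shown as a zinc finger gene without one. It lies in a stretch where no gene had a summit, and its GC content was 1 of 4 equally near to the median of the zinc finger promoters there.
TCF3: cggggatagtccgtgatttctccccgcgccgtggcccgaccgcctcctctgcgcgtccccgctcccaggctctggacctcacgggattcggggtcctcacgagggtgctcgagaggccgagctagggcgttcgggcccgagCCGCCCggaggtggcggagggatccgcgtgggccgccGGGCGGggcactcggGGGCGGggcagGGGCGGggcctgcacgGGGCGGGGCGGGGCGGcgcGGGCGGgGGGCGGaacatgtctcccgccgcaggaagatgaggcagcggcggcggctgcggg
ZNF274: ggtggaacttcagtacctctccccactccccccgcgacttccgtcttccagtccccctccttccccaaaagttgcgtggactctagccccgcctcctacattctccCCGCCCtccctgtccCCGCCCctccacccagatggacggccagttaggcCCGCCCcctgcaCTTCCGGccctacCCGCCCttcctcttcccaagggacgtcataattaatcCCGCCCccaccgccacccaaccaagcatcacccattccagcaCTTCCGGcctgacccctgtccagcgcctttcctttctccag
KLF2: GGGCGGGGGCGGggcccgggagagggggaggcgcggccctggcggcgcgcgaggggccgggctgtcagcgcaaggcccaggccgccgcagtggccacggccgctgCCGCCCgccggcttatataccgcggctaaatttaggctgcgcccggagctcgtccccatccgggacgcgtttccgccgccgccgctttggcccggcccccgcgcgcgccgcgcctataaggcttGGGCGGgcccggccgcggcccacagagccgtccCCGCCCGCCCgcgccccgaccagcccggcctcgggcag
ZNF254: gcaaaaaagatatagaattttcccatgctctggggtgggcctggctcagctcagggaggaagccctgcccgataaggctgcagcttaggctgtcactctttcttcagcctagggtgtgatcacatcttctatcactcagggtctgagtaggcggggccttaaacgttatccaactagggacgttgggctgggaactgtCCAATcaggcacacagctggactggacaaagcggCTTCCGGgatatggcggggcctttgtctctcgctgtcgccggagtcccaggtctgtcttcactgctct
TCF3 held 9 matches to GGGCGG, KLF2 held 6 and ZNF274 held 5 beside 2 matches to CCGGAAG. The ZNF274 window had a GC content of 64.3%, against 55.7% in ZNF254, and held 16 CpG dinucleotides, against 10 in ZNF254. The summits of TCF3 and KLF2 lay inside their windows, and that of ZNF274 lay 461 bp after the start, outside its window. A match describes these letters and is not evidence of binding by the factor.

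Chromosome 16 and chromosome 19 differed in how summits related to gene number. Chromosome 16 had 2.15 summits and 9.47 protein-coding genes per Mb, chromosome 19 had 2.92 summits and 24.8 genes per Mb, and the other chromosomes together had 0.809 summits and 6.13 genes per Mb. Per 100 protein-coding genes this gave 22.7 summits on chromosome 16, 11.8 on chromosome 19 and 13.2 on the other chromosomes. Chromosome 19 thus stood above the other chromosomes per unit of length and not per gene, while chromosome 16 stood above these pooled chromosomes on both counts. Single chromosomes came close to it or passed it: chromosome 17 had 2.73 summits per Mb and 19.4 per 100 genes, and chromosome 11 had 1.95 and 20.3.

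The same contrast held for genes. On chromosome 16, a summit lay within 1 kb of either end for 166 of 854 protein-coding genes (19.4%, 95% interval 16.8 to 22.3), and on chromosome 19 for 149 of 1451 (10.3%, 8.75 to 11.9). Over all 23 chromosomes with summits the share was 11.6%, and over all but these 2 it was 11.4%. Chromosome 16 was not the highest, since chromosome 20 had 23.8% (20.3 to 27.7), and chromosomes 17 and 11 both had 17.5% (15.3 to 19.8 and 15.5 to 19.7). The share on chromosome 16 was 9.17 percentage points above that on chromosome 19 (6.07 to 12.4). These shares helped to choose the chromosomes, so nothing further is read from their distance to the background. Neighbouring genes often counted the same summit: 134 distinct summits lay behind the 166 genes of chromosome 16, and 122 behind the 149 of chromosome 19.

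**Figure D1:**
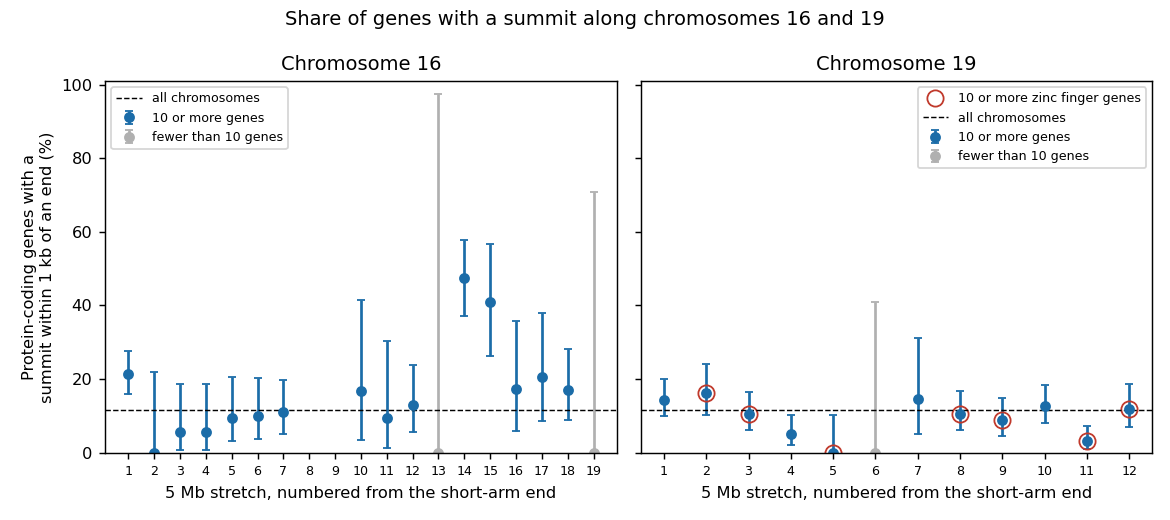
Each point is the percentage of protein-coding genes in a 5 Mb stretch whose nearer end had a summit within 1 kb, with its exact 95% interval; stretches are numbered from the short-arm end of chromosome 16 (left) and chromosome 19 (right), and the dashed line is the share over all chromosomes, 11.6%. Stretches 8 and 9 of chromosome 16 hold no protein-coding gene, grey points are stretches with fewer than 10 genes, and red circles mark stretches with 10 or more zinc finger genes. On chromosome 16 stretches 14 and 15 stand at 47.4% and 40.9%, while the highest stretch of chromosome 19 stands at 16.3%.

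Along chromosome 16 the genes with a summit were concentrated on the long arm between 65 and 75 Mb. There 64 of 141 genes had a summit (45.4%, 37.0 to 54.0), against 102 of 713 on the remainder of the chromosome (14.3%, 11.8 to 17.1), a difference of 31.1 points (22.2 to 40.03). The 65 to 70 Mb stretch reached 47.4% (46 of 97 genes) and the 70 to 75 Mb stretch 40.9% (18 of 44), ranks 2 and 5 among the 368 stretches of 5 Mb with at least 20 genes on all chromosomes. These stretches were named with their shares already known. The tip of the short arm, from 0 to 5 Mb, came next among the stretches of chromosome 16 with 42 of 197 genes (21.3%, 15.8 to 27.7). From 5 to 35 Mb the share was 8.48% (24 of 283), and from 75 Mb to the end it was 17.6% (23 of 131). The 5 to 10 Mb stretch had no gene with a summit among 15, which allows a share of up to 21.8%, and the 15371825 bp from 31459538 to 46831363, across the centromere, held no summit.

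The summits of the long-arm block were spread over most of it. Its 64 genes were covered by 49 distinct summits, and its 70 summits of every kind came to 7 per Mb. Counted by single Mb, the share was between 38.5% and 50% in each Mb from 66 to 72 Mb, and over these 6 Mb it was 46.4% (58 of 125 genes, 37.4 to 55.5). The densest Mb, from 67 to 68 Mb, held 26 summits and 44 genes, of which 21 had a summit. Beyond it the share was 16.7% (1 of 6 genes) from 72 to 73 Mb and 62.5% (5 of 8) from 74 to 75 Mb, where few genes lie. Without the 65 to 75 Mb block, chromosome 16 was 4.04 points above chromosome 19 (1.04 to 7.21) and 2.95 points above the other chromosomes (0.42 to 5.78).

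Scores were also higher in the block. Its 70 summits had a median score of 4.42 (quartiles 2.92 and 6.48), against 3.72 (2.62 and 5.28) for the 124 summits elsewhere on chromosome 16. All 7 summits of chromosome 16 with a score of 10 or more lay in it, and 17 of its 70 summits (24.3%, 14.8 to 36.0) were among the 270 highest-scoring of the whole list, against 17 of 124 elsewhere on the chromosome (13.7%, 8.19 to 21.0). On chromosome 19 the median was 3.76 (quartiles 2.52 and 5.07), and 16 of 171 summits (9.36%, 5.44 to 14.7) were among those 270. The median over the chromosomes other than 16 and 19 was 3.72. The score ranges overlapped throughout, from 1.31 to 13.4 in the block, from 1.54 to 9.64 elsewhere on chromosome 16 and from 1.41 to 41.5 on chromosome 19.

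**Figure D2:**
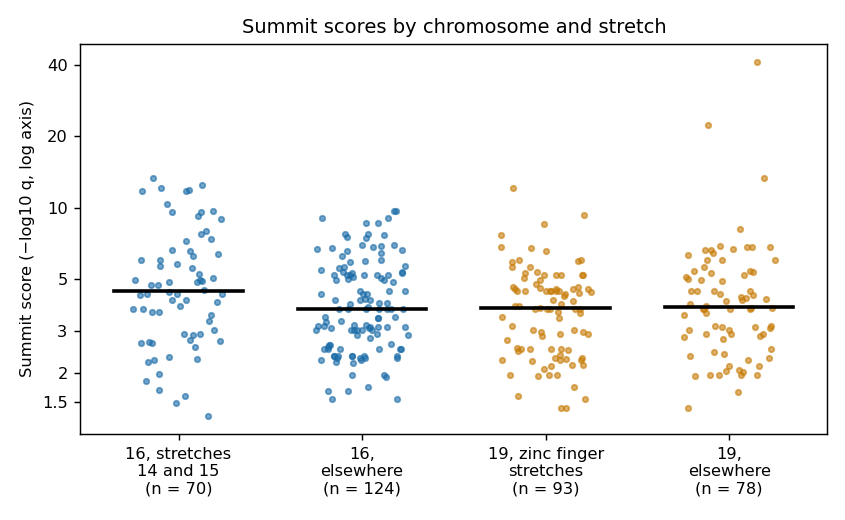
Each point is a summit and each bar a median; the vertical axis is the summit score (−log10 q) on a log scale. The groups are stretches 14 and 15 of chromosome 16 (65 to 75 Mb, median 4.42), the remainder of chromosome 16 (3.72), the zinc finger stretches of chromosome 19 (3.76) and its remainder (3.80). The highest points, 41.5 and 22.4, lie on chromosome 19 outside the zinc finger stretches.

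The genes with the highest scores in the block belong to several cell functions. SLC7A6, an amino acid exchanger of the plasma membrane, had the highest score of chromosome 16, 13.4, from a summit at 68264346, 180 bp before its start. VPS4A, the ATPase that takes ESCRT-III filaments apart, scored 12.5 with a summit 214 bp after its start. CTCF, the insulator protein that anchors chromatin loops, scored 12.1 with a summit 288 bp before its start and had a further summit, scoring 3.02, 672 bp after it. PHLPP2, a phosphatase that acts on AKT, scored 11.9, and TERF2, a component of the shelterin complex at telomeres, scored 11.8. A single summit at 67846993, scoring 10.4, lay within 1 kb of both NUTF2, the import receptor of the GTPase RAN, and CENPT, an inner kinetochore protein.

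The next genes of the block had varied roles as well. PDF, a mitochondrial peptide deformylase, scored 9.67. A summit scoring 9.61 at 69132580 lay 8 bp from the shared outer end of CHTF8, a subunit of an alternative clamp loader, and DERPC, and 69 bp from UTP4, a factor of ribosomal RNA processing. CHTF8 and DERPC have the same outer limits in the gene table, so this summit cannot be assigned to one of them. THAP11, a zinc-dependent transcription factor, scored 9.23 and FA2H, the fatty acid 2-hydroxylase, 8.92. CKLF, a chemokine-like factor, and the read-through gene CKLF-CMTM1 shared a score of 7.94. Outside the block, the highest scores at gene ends of chromosome 16 were tied at 9.64, at MTHFSD on the distal long arm and at a summit shared by NME3, a nucleoside diphosphate kinase, and MRPS34, a protein of the small mitochondrial ribosome subunit, on the short arm.

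Of the 4 runs of 4 or more neighbouring genes with summits on chromosome 16, 3 lay in the block. The longest held 7 consecutive protein-coding genes from 67674536 to 67884499, namely GFOD2, RANBP10, TSNAXIP1, CENPT, THAP11, NUTF2 and EDC4, over 5 distinct summits. The next held 6 genes over 3 summits, from TRADD, an adaptor of TNF receptor signalling, to EXOC3L1. Another held ESRP2, a splicing regulator of epithelial cells, PLA2G15, SLC7A6, SLC7A6OS and PRMT7 over 4 summits. Chromosome 19 had 2 runs of 4 genes, over 2 summits each, ALKBH6 to WDR62 and SNRNP70 to PPFIA3.

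On chromosome 19 the highest score at a protein-coding gene end was 13.4 at TCF3, which encodes the E2A transcription factors, with a summit at 1652812, 197 bp before the start. ZNF274, a KRAB zinc finger protein that recruits a histone H3 lysine 9 methyltransferase, came next with 12.1, from a summit 461 bp after its start. SERTAD3, a regulator of E2F-dependent transcription, scored 9.33 with a summit 981 bp inside the gene and had a further one, scoring 2.55, 208 bp outside it. Its relative and neighbour SERTAD1 carried summits scoring 6.74 and 4.93. A summit scoring 8.52 lay 63 bp inside ZNF473 and 696 bp outside the kinase gene VRK3. The others of the leading group were CHERP (8.11), EGLN2, an oxygen-sensing prolyl hydroxylase (7.66), and KLF2, a transcription factor of endothelial and lymphoid cells (6.84). CDC34, a ubiquitin-conjugating enzyme, DOHH, which completes the hypusine of eIF5A, and NDUFS7, a subunit of respiratory complex I, tied at 6.84.

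Both of the summits above TCF3 on chromosome 19 lay away from protein-coding gene ends. The summit scoring 41.5 lay at 4769702, 597 bp from an end of MIR7-3HG, the host transcript of a miR-7 precursor, and 22032 bp from the nearest protein-coding gene end, that of FEM1A. The summit scoring 22.4 lay inside VRK3 at 49987317, 10849 bp from its nearer end.

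Most summits of both chromosomes lay at ends of protein-coding genes. Of the summits, 136 of 194 on chromosome 16 (70.1%, 63.1 to 76.5) and 124 of 171 on chromosome 19 (72.5%, 65.2 to 79.1) lay within 1 kb of a protein-coding gene end, against 73.5% (71.6 to 75.2) on the other chromosomes. A further 10 and 7 lay at ends of other genes only. Bodies of protein-coding genes held 37 (19.1%, 13.8 to 25.3) and 32 (18.7%, 13.2 to 25.4), against 13% (11.7 to 14.5) on the other chromosomes. Bodies of other genes held 1 and 0, and intergenic sequence held 10 and 8. These classes use outer gene ends, so some body summits lay at a known start inside the gene. Examples are HAS3 on chromosome 16, 11 bp after its start, and YIF1B on chromosome 19, 1 bp after its start.

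Summits at genes sat at the transcription start. Starts were known for 611 of the 854 protein-coding genes of chromosome 16 and 1185 of the 1451 of chromosome 19. Among genes with a summit and a known start, the highest-scoring summit was at the 5′ end in 131 of 140 on chromosome 16 (93.6%, 88.1 to 97.0) and 119 of 133 on chromosome 19 (89.5%, 83.0 to 94.1), and at the 3′ end only in 9 and 14. On the other chromosomes it was at the 5′ end in 96.6% (95.6 to 97.4). Of all summits, 125 on chromosome 16 and 112 on chromosome 19 lay within 1 kb of a known start. Their median position was 11 bp after the start on chromosome 16 (quartiles 93 bp before and 113 bp after) and 16 bp before it on chromosome 19 (169 bp before and 145 bp after). Counting only known starts, 142 of 611 genes of chromosome 16 (23.2%) and 128 of 1185 of chromosome 19 (10.8%) had a summit within 1 kb, where the share over all chromosomes was 12.1%.

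**Figure D3:**
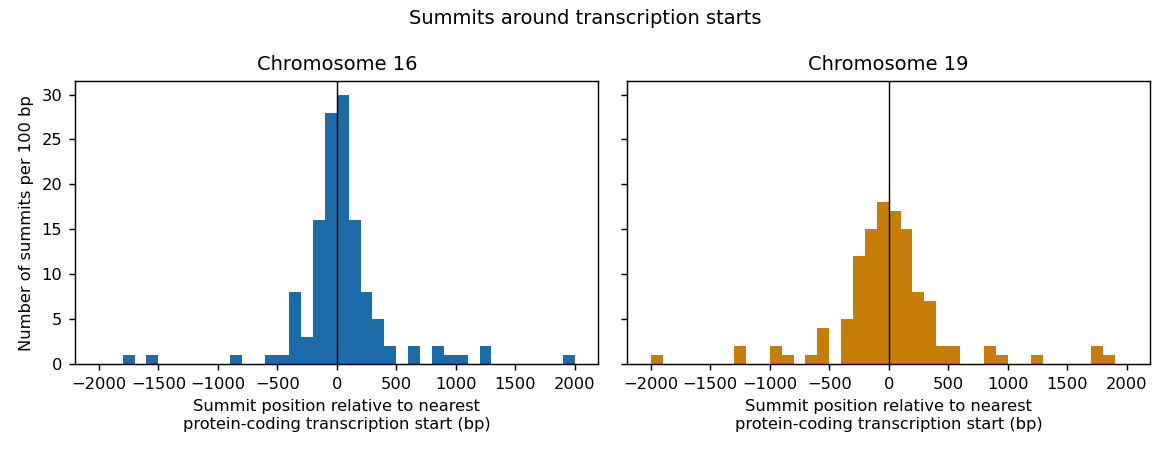
Histogram of summit positions relative to the nearest known protein-coding transcription start, in bins of 100 bp, for chromosome 16 (left) and chromosome 19 (right); negative values lie before the start, and summits over 2 kb away are not drawn. Both distributions peak at the start, with medians 11 bp after it on chromosome 16 and 16 bp before it on chromosome 19 among summits within 1 kb.

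Some summits served more than 1 gene. On chromosome 16, 34 of 194 summits (17.5%) lay within 1 kb of the ends of 2 or more protein-coding genes, on chromosome 19 28 of 171 (16.4%), and on the other chromosomes 14.4%. Of these, 18 on chromosome 16 and 12 on chromosome 19 lay within 1 kb of the 5′ ends of 2 genes on opposite strands. Another 8 and 9 lay at the 5′ end of one gene and the 3′ end of another. After CENPT and NUTF2, the highest-scoring opposite-strand pairs of chromosome 16 were led by ZNF821 with the ESCRT-III factor IST1 (7.71). Next came the mitochondrial helicase DDX28 with the tRNA dihydrouridine synthase DUS2 (6.52), whose starts are 52 bp apart, and CMC2 with the kinetochore gene CENPN (6.44). The shared summits of chromosome 19 were led, after that of VRK3 and ZNF473, by TMED1 with C19orf38 (5.35), ZBTB32 with KMT2B (5.20) and MIA with RAB4B (4.60). Its highest-scoring opposite-strand pairs were HOOK2 with the AP-1 gene JUNB (4.44), ZNF470-DT with ZNF470 (4.44) and THAP8 with WDR62, a spindle pole protein (4.30). Some of these pairs overlap at their 5′ ends and are not divergent, among them CENPT with NUTF2, HOOK2 with JUNB, and ZNF470-DT with ZNF470. The summit of ZNF821 and IST1 lay at their outer ends, while the starts in the promoter table are 11952 bp apart. Another 3 shared summits of chromosome 19 also scored 4.44, at CD320 with NDUFA7, SAMD1 with PRKACA, and TRAPPC2B with ZNF547.

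Genes that held several summits were few. On chromosome 16, 15 genes had 2 summits in or within 1 kb of them, and BCAR1, an adaptor of integrin signalling, had 3, scoring 7.40, 6.62 and 3.13. The 15 were MRPS34, FBXL19, NDRG4, CMTM4, NOL3, FHOD1, RIPOR1, CTCF, CENPT, NUTF2, HAS3, AARS1, ZNF821, ZFHX3 and GSE1. On chromosome 19, 11 genes had 2, among them ARHGAP45, CIRBP, CDKN2D, HOOK2, JUNB, YIF1B, SERTAD1, SERTAD3, ZC3H4 and VRK3. JUNB, an immediate early transcription factor gene, had a summit scoring 4.44 inside it, 895 bp from its 3′ end. Its other summit, scoring 5.31, lay 331 bp beyond that end. Counts of genes with several summits on the other chromosomes are not given here.

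Summits over 1 kb from every annotated gene end were led on chromosome 16 by a summit inside CARMIL2 scoring 11.8 at 67652841, which lay 4671 bp from the telomere protein gene ACD. The next was an intergenic summit scoring 9.59 at 68237697, 1570 bp from ESRP2, and both lay in the long-arm block. Others were an intergenic summit at 50468052 (7.53), 80344 bp from the Wnt antagonist gene NKD1, and summits inside BCAR1 (7.40) and the phospholipase gene PLCG2 (6.93). On chromosome 19, after the VRK3 summit, they lay inside ELAVL3, a neuronal RNA-binding protein (6.84), inside the tumour suppressor kinase STK11 (6.67), 19526 bp before the start of TCF3 (6.63) and inside DBP, a circadian transcription factor (6.01).

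The 1 kb limit divided genes whose distances were close. On chromosome 16 the nearest summit lay 1000 bp from PRR14, 989 bp from VAC14 and 941 bp from LOC124903759 just inside it, and 1234 bp from ARMC5, 1269 bp from LOC124900576 and 1278 bp from TBL3 just outside. On chromosome 19 it lay 925 bp from ATF5, 891 bp from JUND and 889 bp from DMPK inside, and 1058 bp from CIMAP1D and 1108 bp from APBA3 outside.

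Zinc finger genes of chromosome 19 had summits about as often as its other genes. Of 266 zinc finger genes 25 had a summit (9.40%, 6.17 to 13.6), against 124 of 1185 other genes (10.5%, 8.78 to 12.3), a difference of −1.07 points whose interval ran from −4.80 to 3.43. Without zinc finger genes on either chromosome, chromosome 16 was 8.58 points above chromosome 19 (5.34 to 11.9). Chromosome 16 had 35 zinc finger genes, of which 10 had a summit (28.6%, 14.6 to 46.3), and on all chromosomes but 19 the share was 17.8% of 304. The symbol rule also took in ZNF470-DT and the read-through ZNF559-ZNF177, which the table lists as protein-coding.

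The zinc finger genes of chromosome 19 differed by stretch. Among the 7 stretches with at least 10 of them, 7 of 16 had a summit from 5 to 10 Mb (43.8%, 19.8 to 70.1) and 13 of 72 from 55 Mb to the end (18.1%, 9.98 to 28.9). There were 2 of 30 from 35 to 40 Mb, 1 of 28 from 40 to 45 Mb and 1 of 42 from 50 to 55 Mb. None of 26 had one from 10 to 15 Mb (interval to 13.2%) and none of 32 from 20 to 25 Mb (to 10.9%), where 2 other genes also had none. The 20 to 25 Mb stretch lay in the widest gap of the chromosome, which ran from 19776724 to 32406150 without a summit. Other genes of the 5 to 10 Mb stretch had a summit in 13 of 107 cases (12.1%, 6.63 to 19.9), the widest contrast with zinc finger genes of the same stretch. Other genes of the 10 to 15 Mb stretch had a summit in 16 of 126 cases (12.7%, 7.44 to 19.8). In the stretch from 55 Mb to the end they had one in 3 of 63 (4.76%, 0.99 to 13.3). From 35 to 40 Mb 6.67% of zinc finger genes and 11.6% of other genes had a summit, from 40 to 45 Mb 3.57% and 10.1%, and from 50 to 55 Mb 2.38% and 3.48%. Zinc finger genes thus stood above their neighbours in 2 stretches and below them in 4. The separate intervals overlap in each, which does not place a difference within counting error. Intervals of these differences were not computed.

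**Figure D4:**
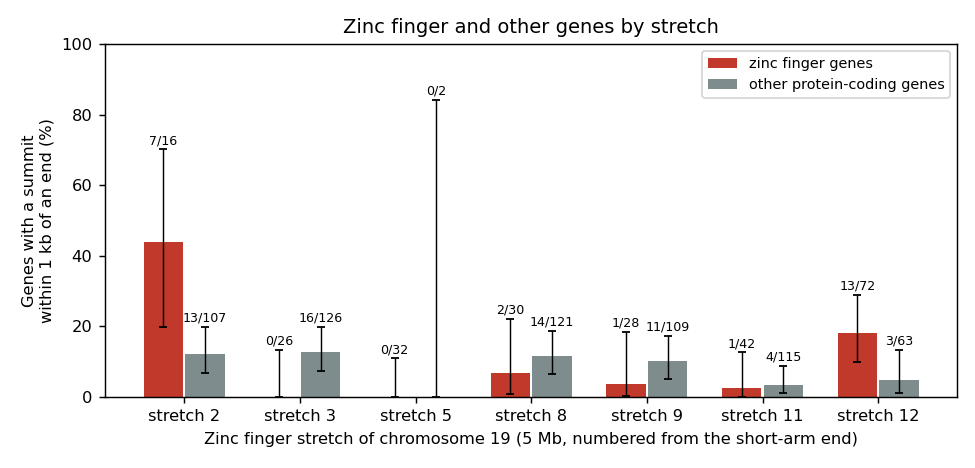
Bars show the percentage of zinc finger genes (red) and of other protein-coding genes (grey) that have a summit 1 kb or less from an end, in the 7 stretches of chromosome 19 that hold 10 or more zinc finger genes; lines are exact 95% intervals and the numbers over them are genes with a summit over all genes. Zinc finger genes range from none of 26 and none of 32 in stretches 3 and 5 to 7 of 16 in stretch 2.

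After ZNF274 and ZNF473, the highest scores at outer ends were 6.56 at ZNF865, 5.20 at the 3′ end of ZNF580, 4.73 at ZNF414, 4.54 at ZNF8 and 4.51 at ZNF837. Summits also lay 56 bp after the known start of ZNF329 (5.63) and 37 bp before that of ZNF846 (3.72). Both lay over 1 kb from an outer end, so they were not counted. ZNF470, ZNF470-DT and ZNF547 tied at 4.44. The median over the 25 was 2.97, below the 3.80 of the other genes with a summit on the chromosome.

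Some other gene families had no summit within 1 kb of an outer gene end. The shares to read these against are 10.3% of all genes on chromosome 19 and 19.4% on chromosome 16. On chromosome 19 there was none at the ends of 42 leukocyte receptor genes (interval to 8.41%), 22 CEACAM and PSG genes (to 15.4%), 20 olfactory receptor genes (to 16.8%), 15 kallikrein genes (to 21.8%) or 12 cytochrome P450 genes (to 26.5%). On chromosome 16 none was found at 11 metallothionein genes (to 28.5%), 8 cadherin genes (to 36.9%) or 5 alpha-globin genes (to 52.2%). Only the interval of the leukocyte receptor genes ended below the share of its chromosome, and for the other 7 families a share equal to it was within the interval. Of 8 broadly expressed neighbours of the alpha-globin genes, the splicing factor gene LUC7L had one at an outer end (4.44). A summit scoring 3.02 lay 153 bp after the known start of MPG, also near the alpha-globin genes. It lay 1371 bp from the outer end of MPG, so it was not counted. The metallothioneins, which bind zinc and copper, lay a median of 452928 bp from the nearest summit.

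Lists of genes grouped by function had summits at outer gene ends on both chromosomes, solute carriers of chromosome 19 excepted. Genes of chromatin, transcription and genome maintenance had a summit in 9 of 33 cases on chromosome 16 (27.3%, 13.3 to 45.5), where beside CTCF, TERF2, CENPT and CENPN the acetyltransferase CREBBP scored 5.95 and the lysine methyltransferase SETD6 5.44. On chromosome 19 they had one in 10 of 46 (21.7%, 10.9 to 36.4). After TCF3 and KLF2 came the maintenance DNA methyltransferase DNMT1 (5.86), JUNB (5.31), the histone methyltransferase KMT2B (5.20) and the Mediator subunit MED26 (5.10). This JUNB summit lay 331 bp beyond its 3′ end. RNA processing and translation genes had 8 of 27 on chromosome 16 (29.6%, 13.8 to 50.2) and 9 of 38 on chromosome 19 (23.7%, 11.4 to 40.2). On chromosome 16 they included DDX28, the alanyl-tRNA synthetase AARS1 (5.75), the ribosome assembly factor NOB1 (4.86), LUC7L, the arginine methyltransferase PRMT7 (3.29) and SRRM2 (3.13). This AARS1 summit lay at its 3′ end, 49 bp from the start of EXOSC6, and the summit at its 5′ end scored 1.84. On chromosome 19 they included SNRNP70 of the U1 snRNP (5.33), the RNA polymerase subunit POLR2E (4.06) and SF3A2 of the U2 snRNP (4.03).

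Genes of the mitochondrial ribosome, import and respiratory chain had 2 of 7 on chromosome 16, MRPS34 and NDUFB10 (6.84). On chromosome 19 they had 6 of 21 (28.6%, 11.3 to 52.2), namely NDUFS7, the ATP synthase subunit ATP5F1D (4.94), MRPL54 (4.44), NDUFA7 (4.44), TIMM50 (4.24) and MRPS12 (4.04). The highest-scoring summits of MRPS34 and NDUFA7 lay at their 3′ ends, 130 bp from the start of NME3 and 97 bp from that of CD320. A summit scoring 3.13 lay at the 5′ end of MRPS34. Membrane trafficking genes had 3 of 21 on chromosome 16, VPS4A, STX4 (4.30) and, at its 3′ end, VAC14 (1.69). On chromosome 19 they had 5 of 22, namely RAB4B (4.60), PLEKHJ1 (4.03), RAB11B (3.40), AP2S1 (3.16) and EPN1 (2.13). The lists of solute carriers had 4 of 12 on chromosome 16 and none of 16 on chromosome 19 (interval to 20.6%). The 4 were SLC7A6, SLC12A4 (6.36), SLC38A7 (2.80) and the neighbour gene SLC7A6OS that the symbol pattern took in (3.29). On chromosome 19 a summit scoring 2.87 lay 118 bp after the known start of SLC27A1, but 1875 bp from its outer end, so it was not counted. Of the zinc finger genes of chromosome 16, ZNF821 (7.71), ZKSCAN2 (4.97), ZNF23 (4.72), ZSCAN32 and ZNF174 (3.95 each, at a shared summit) and ZNF629 (2.36) scored highest at outer ends. Summits also lay 194 bp after the known start of ZFP1 (6.74) and 83 bp after that of ZFP90 (2.88). Both lay over 1 kb from an outer end, so they were not counted. On chromosome 16 the interval of each of these lists includes the share over all its genes, 19.4%. On chromosome 19, where that share was 10.3%, the intervals of the chromatin, RNA processing and mitochondrial lists lie above it, and those of the trafficking and solute carrier lists include it. The lists were chosen with earlier results of these data known.

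Promoters with a summit were richer in GC than those without, and the block of chromosome 16 stood above the other sets in both bands of higher GC. The median GC content of the 300 bp windows with a summit within 1 kb of the start was 68.8% on chromosome 16 (142 windows), 66% on chromosome 19 (128) and 69.0% on the other chromosomes, and of those without 65.7%, 62.7% and 61.3%. Among windows with a GC content of 65% or more, 41 of 59 had a summit between 65 and 75 Mb of chromosome 16 (69.5%, 56.1 to 80.8), 66 of 305 elsewhere on chromosome 16 (21.6%, 17.1 to 26.7), and 63 of 445 at genes of chromosome 19 other than zinc finger genes (14.2%, 11.1 to 17.7). In the band from 55 to 65% the counts were 12 of 28, 18 of 140 and 34 of 371. In that band zinc finger genes of chromosome 19 had 17 of 136 (12.5%, 7.45 to 19.3), and at 65% or more 6 of 57 (10.5%, 3.96 to 21.5). Under 55% they had none of 36 (interval to 9.74%), where other genes of chromosome 19 had 8 of 140 (5.71%, 2.50 to 10.9). The part of GC content in the shares was not tested otherwise.

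**Figure D5:**
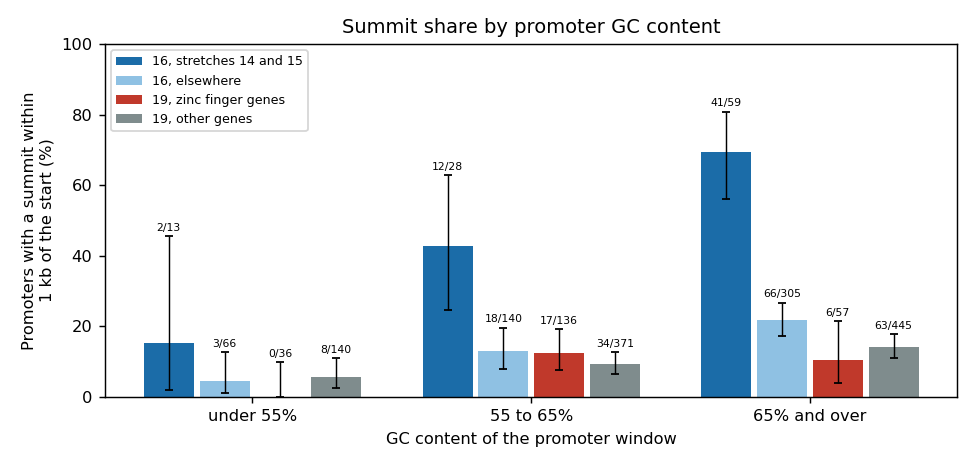
Bars show the percentage of promoter windows with a summit within 1 kb of the start in 3 bands of GC content, for stretches 14 and 15 of chromosome 16 (65 to 75 Mb), the remainder of chromosome 16, zinc finger genes of chromosome 19 and its other genes; lines are exact 95% intervals and the numbers over them are promoters with a summit over all promoters. In the highest band the block on chromosome 16 stands at 69.5%, the remainder of the chromosome at 21.6% and the other genes of chromosome 19 at 14.2%.

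Of the 6 motifs, the SP and KLF motif and the YY1 motif had higher shares in windows with a summit than without, beyond their intervals, on chromosome 16. No other motif did on either chromosome. This was not particular to chromosome 16. On the other chromosomes, with 1650 and 12366 windows, GGGCGG (80.3% with, 54.3% without) and ATGGCGGC (7.21%, 3.89%) also differed beyond their intervals. There CCGGAAG (21.6%, 12.4%) and the NRF1 palindrome (3.39%, 1.45%) did so as well. GGGCGG occurred in 115 of 142 windows with a summit on chromosome 16 (81.0%, 73.6 to 87.1) and 306 of 469 without (65.2%, 60.7 to 69.6), and in 93 of 128 with one on chromosome 19 (72.7%, 64.1 to 80.2) and 692 of 1057 without (65.5%, 62.5 to 68.3), where 58.5% of all protein-coding promoters held it. In zinc finger windows of chromosome 19 it was in 65.2% with a summit and 67.0% without. ATGGCGGC occurred in 21 of 142 with a summit on chromosome 16 (14.8%, 9.39 to 21.7) and 26 of 469 without (5.54%, 3.65 to 8.02), in 12 of 128 with one on chromosome 19 (9.38%, 4.94 to 15.8) and 52 of 1057 without (4.92%, 3.70 to 6.40), and in 4.50% of all promoters. CCGGAAG was held by 24.6% of windows with a summit on chromosome 16 and 20.9% without, by 24.2% with one on chromosome 19 and 18.3% without, and by 14.2% of all. The NRF1 palindrome was in 2.82% with and 2.35% without on chromosome 16, 5.47% with and 1.99% without on chromosome 19, and 1.76% of all. TATAAA was in 1.41% with and 6.40% without on chromosome 16, 3.91% with and 7.28% without on chromosome 19, and 9.64% of all. CCAAT was held by 36.6% of windows with a summit and 34.1% without on chromosome 16, 41.4% with and 39.9% without on chromosome 19, and 36.3% of all. The windows compared were not matched for GC content.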

How the data were processed

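WSTF was profiled by ChIP-seq in SW620 cells. The submitters' processing notes name build hg38 and the tools MACS2 2.2.7.1, Bowtie2 2.4.4 and Trimmomatic 0.39, and per the design text peaks were called against input DNA. No source used here states whether replicates were pooled. The deposited score was read as the −log10 q-value of the authors' peak caller, because it starts at 1.31, just above the 1.30 of a q of 0.05. The deposited list gives 1 base per peak. Read depth is unknown.

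Positions were set against the RefSeq gene table of GRCh38.p14, whose chromosome coordinates are those of hg38, with 19974 protein-coding genes on 23 chromosomes. Starts and strands came from RefSeq promoter windows, which matched 15812 of these genes. A gene counted when a summit lay within 1 kb of either outer end. It was placed in the 5 Mb stretch of its midpoint. Intervals of differences combine the exact bounds of both shares by the square-and-add method. No p-value was computed. The gene assignment was tested on simulated summits at known distances.

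The members, the 15 gene lists and the limits were chosen with earlier results of these data known. Of 237 list entries 7 matched no gene on their chromosome. Named genes were, per chromosome, the 10 highest-scoring at gene ends (ties kept), the 15 in the block, the 10 zinc finger genes, up to 6 per list, the 5 summits away from ends, genes with several summits, genes nearest the limit and the highest-scoring shared pairs. Some genes that this rule selects are not reported here. Scripts used Python 3.11.15, pandas 2.3.3 and SciPy 1.17.1.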

Additional observations from a re-analysis of the deposited data

How the results depend on the processing

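Of 65 alternative values, 32 stayed within the 95% interval of the main value and 33 did not; the gene share of chromosome 16 stayed above that of chromosome 19 in each setting. Its summit share at gene ends was below that of chromosome 19 at 1 kb and in the 3 other windows, and above it in both settings with fewer summits. With a window of 500 bp, the gene share of chromosome 16 was 16.6% and its summit share at gene ends 62.4%, against 66.1% on chromosome 19. With 2 kb, the gene share of chromosome 19 was 12.5%, that of its genes other than zinc finger genes 12.7%, and the summit shares were 77.3% on chromosome 16 and 80.1% on chromosome 19. With 5 kb, the gene shares were 26.6% on chromosome 16, 55.3% from 65 to 75 Mb, 15.2% on chromosome 19 and 15.7% for its other genes, and the summit shares 83.5% and 86.0%. With summits at or above the median score, the gene shares were 12.2% on chromosome 16, 33.3% from 65 to 75 Mb, 5.58% on chromosome 19, 4.14% for its zinc finger genes and 5.91% for its other genes. With the 10% highest-scoring summits they were 4.10%, 14.2%, 0.83%, 0.75% and 0.84%, the difference between the chromosomes was 3.27 points, and the summit share of chromosome 16 was 82.4%; these settings hold fewer summits. Counting transcription starts only gave 23.2% on chromosome 16, 55% from 65 to 75 Mb and a difference of 12.4 points. Crediting each summit to its nearest gene gave 15.7%, 34.8% from 65 to 75 Mb, 8.41% on chromosome 19 and 8.35% for its other genes. Without the stretch of 65 to 75 Mb, chosen after seeing the data, chromosome 16 was at 14.3% and 4.04 points above chromosome 19. No paired analysis was possible because the summits form 1 list with no replicates. Assembly gaps and repeats were not taken into account.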

Other observations

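Zinc finger promoters on chromosome 19 differed in CCAAT, a contrast picked from the 6 motifs after their values were seen. Of the windows with a summit within 1 kb of the start 4 of 23 held CCAAT (17.4%, 4.95 to 38.8), against 117 of 206 without one (56.8%, 49.7 to 63.7). Other genes of the chromosome went the opposite way, with 49 of 105 (46.7%, 36.9 to 56.7) and 305 of 851 (35.8%, 32.6 to 39.2). CCGGAAG was held by 11 of 23 (47.8%) and 91 of 206 (44.2%), and by 14.2% of all protein-coding promoters. All 26 zinc finger windows from 20 to 25 Mb held CCAAT and 21 held CCGGAAG. Their GC content ran from 50.7% to 59.3%. These genes belong to a cluster that grew by duplication and are not independent. Of the 26 windows 24 shared at least 1 word of 31 bases with the promoter of another protein-coding gene, although none shared 50% of its words. Of all 229 zinc finger windows on the chromosome 71 shared such a word, and of 956 windows of other genes 149 did. The part of shared sequence in the summit counts was not tested.

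Zinc finger genes at 5 to 10 Mb and from 55 Mb to the end, grouped after their counts were seen, had a summit in 20 of 88 cases (22.7%, 14.5 to 32.9), and those elsewhere on the chromosome in 5 of 178 (2.81%, 0.92 to 6.43).

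Summits with another summit within 10 kb made up 33 of 194 on chromosome 16 (17%) and 24 of 171 on chromosome 19 (14%). The share on the other chromosomes is not given here, so these shares are not read as high or low. The median distance between neighbouring summits was 97235 bp on chromosome 16 and 119761 bp on chromosome 19.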
